A study of Drosophila melanogaster with 15 samples.

Results

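The genes described here are the nuclear genes for mitochondrial ribosomal proteins of *Drosophila melanogaster*, taken as every gene whose symbol begins with mRpL or mRpS followed by a digit. The reference names held 73 such genes. Of these, 71 had a row among the 17559 genes of each count table, 47 named for the large and 24 for the small subunit, and mRpS5 and mRpS34 were not analysed here. The subunit is read from the symbol. RNA of GFP-tagged mushroom body (MB) nuclei from adult flies was sequenced in 15 libraries, with 4 from naïve controls, 4 from trained controls, 3 from naïve trx-KD flies and 4 from trained trx-KD flies. All flies carried w*, the nuclear tag UAS-unc84::GFP, the transgene UAS-Dicer2 and the driver R14H06-Gal4, and the trx-KD flies in addition carried P{GD4502}v37715, the transgene of the trx knockdown. Dicer2 expression and the tag are therefore shared by controls and knockdowns, and the knockdown acts wherever the driver is active. Each library came from a pool of 50 to 60 heads, so a replicate is a pool and not a single fly. The labels give no age, no sex and no time after training.

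Mitochondria keep their own ribosomes, which translate the few messenger RNAs encoded by mitochondrial DNA, all of them for membrane subunits of the respiratory chain and the ATP synthase. Every protein of these ribosomes is encoded in the nucleus, made in the cytosol and imported, while their ribosomal RNAs are transcribed inside the organelle. Neurons depend on respiration for most of their ATP, and trithorax (trx) is a histone H3 lysine 4 methyltransferase that keeps genes active. The comparisons ask how the levels of these genes in MB nuclei differed after training and in the trx knockdown.

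The libraries held 14154045 to 45976562 counts on genes, of which the mitochondrial ribosomal protein genes took 0.050% to 0.064%. In these nuclei the RNA of the targeted gene trx was only slightly lower in the knockdown. It was at 562 to 609 CPM (counts scaled to the TMM-adjusted library size) in the 8 control libraries and at 499 to 550 CPM in the 7 trx-KD libraries. In the edgeR test the log2 fold change was -0.11 (SE 0.06, adjusted p = 0.30) in naïve and -0.15 (SE 0.05, adjusted p = 0.0744) in trained flies. With both treatments in 1 model it was -0.13 (SE 0.03, adjusted p = 0.0106), and all 7 trx-KD libraries lay below all 8 control libraries. Neither trx RNA outside the nucleus nor trx protein was measured here. Of the genes listed as markers of Kenyon cells, the neurons of the MB, all 11 that could be matched were above 1 CPM. Their sum lay between 11163 and 16257 CPM over the 15 libraries. Photoreceptor markers (6 genes, 7292 to 15056 CPM summed) and muscle markers (5 genes, 3233 to 7350 CPM) were present as well, so the RNA was not of MB neurons alone. The lists differ in length, so their sums cannot be compared directly. Per marker, the median in naïve controls was 574 CPM for Kenyon cells, 744 CPM for photoreceptors and 614 CPM for muscle. It was 101 CPM for glia, 10.6 CPM for hemocytes and 4.85 CPM for fat body and hemolymph. In such bulk samples, fewer cells of a type and less RNA per cell cannot be told apart.

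In naïve controls the median over the 69 genes with any count was 9.27 CPM per kilobase (kb) of exon. The middle 50% lay between 7.33 and 12.7 CPM per kb, and the range was 2.93 to 23.4 CPM per kb. The large subunit genes (45 above 0) had a median of 9.27 CPM per kb and the 24 small subunit genes one of 9.24 CPM per kb. On the same scale the median was 133 CPM per kb for 83 cytosolic ribosomal protein genes, 61.4 CPM per kb for 73 nuclear genes of the respiratory chain, and 9.05 CPM per kb for 8854 protein-coding genes tested in naïve flies. The genes for the ribosome of the cytosol thus stood far above those for the ribosome of the mitochondrion in these nuclei, and the latter were near the typical protein-coding gene.

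The highest levels per kb were those of 3 large subunit genes. mRpL24 stood at 23.4 ± 1.57 CPM per kb (SD, n = 4), mRpL30 at 22.2 ± 3.68 CPM per kb and mRpL33 at 21.2 ± 5.77 CPM per kb, and these 3 did not differ beyond their spread. The lowest were mRpL21 at 2.93 ± 0.40 CPM per kb, mRpL49 at 3.74 ± 1.46 CPM per kb and mRpL34 at 4.07 ± 0.39 CPM per kb, all of the large subunit too. All 6 names except mRpL49 belong to proteins with a counterpart in bacterial ribosomes. Among the 3 paralogs of the bacterial protein S18, mRpS18A had 11.1 ± 1.08 CPM per kb, mRpS18B 5.24 ± 0.27 and mRpS18C 5.72 ± 1.00, so that mRpS18A lay above the other two by more than their spread in naïve controls. None of the 3 paralogs was called in any of the 6 comparisons.

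**Figure D1:**
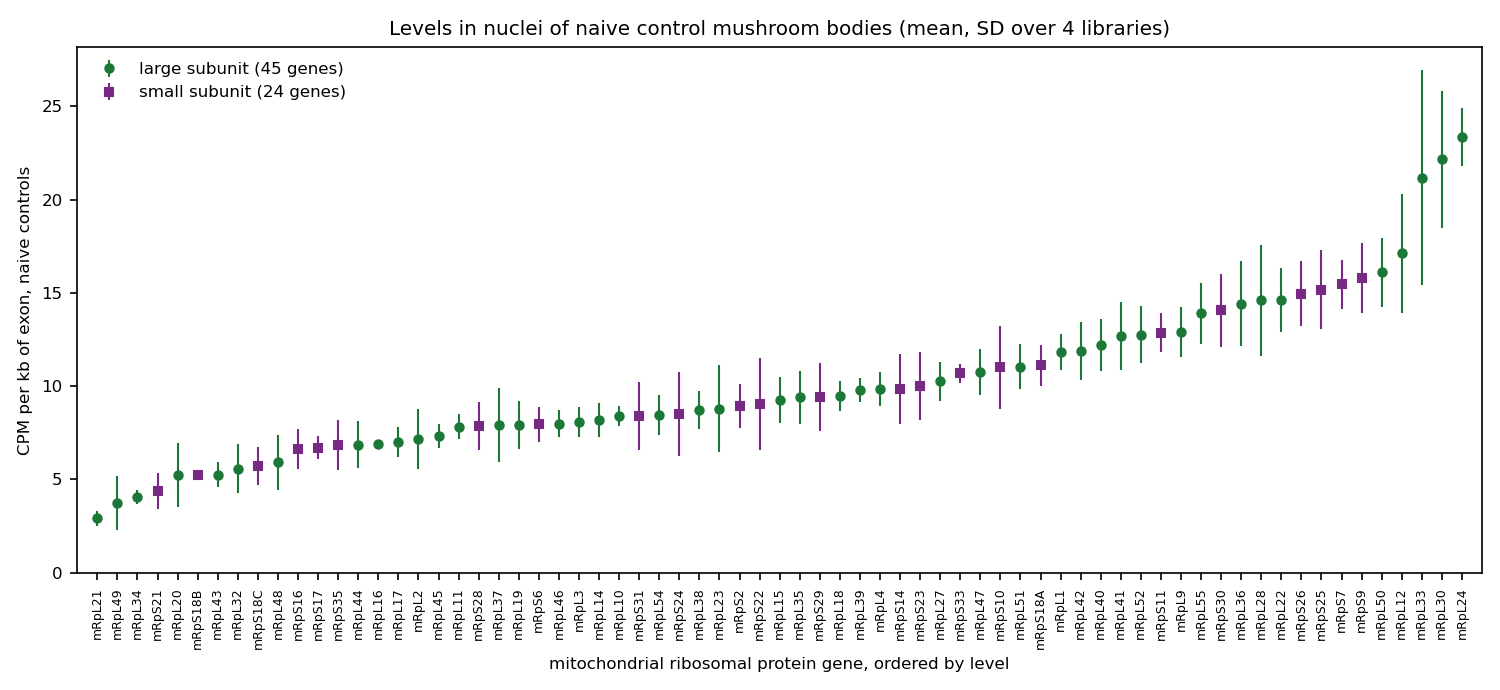
Level of each mitochondrial ribosomal protein gene in CPM per kb of exon in naïve controls (points: mean; lines: SD, n = 4 libraries), with genes ordered by level along the x axis. The middle 50% of genes lie between 7.33 and 12.7 CPM per kb, large and small subunit genes are interspersed, and mRpL33, mRpL30 and mRpL24 stand at the top.

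mRpL13 and mRpL53 were listed at 0 counts in all 15 libraries, where a count of 0 allows at most 3 counts, or 0.0653 to 0.212 CPM. Both share exons on their own strand with another gene: 35.2% of the exon length of mRpL13 lies in CG10602, and 100% of that of mRpL53 in CG33155. Whether the counting dropped reads in such shared exons was not tested. The other 69 genes passed the filter on low counts in each comparison, with a median of 168 counts per library for the typical gene and a lowest single value of 15 counts. Within groups the coefficient of variation of a gene was 13.6% in the median, against 7.99% from counting alone. It was highest for mRpS21 (43.5%) and close to the counting error for mRpL34 (18.4% against 20.4%) and mRpS18B (10.2% against 10.4%).

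The genes are short, with a median exon length of 783 bases in the BDGP6.54 annotation of dm6, and they sit close to other genes. Of the 71 genes, 56 (78.9%) had a start site within 1 kb of a gene transcribed in the other direction, while this held for 36.3% of all 13685 protein-coding genes in the tables and for 43.2% of the 9095 that were tested. Exons of 41 of the 71 genes overlap exons on the opposite strand, in 1 case over more than 50% of the exon length. That gene is mRpS24, with 332 of its 600 exon bases (55.3%) under TBC1d7. The strand setting of the counting is not given in the sources used here, so that reads from such overlaps cannot be assigned to either partner. The genes are spread over the arms 2L (12), 2R (12), 3L (15) and 3R (21) and the X chromosome (11).

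Summed over all genes, the level moved little between the groups. In naïve controls the sum was 621, 583, 621 and 571 CPM, and in trained controls 587, 597, 560 and 589 CPM. Naïve trx-KD libraries had 546, 589 and 582 CPM and trained trx-KD libraries 568, 575, 542 and 576 CPM. The group means were 599 ± 25.8, 583 ± 15.9, 572 ± 23.2 and 565 ± 15.9 CPM (SD, n = 4, 4, 3 and 4), and the ranges of all 4 groups overlapped. The ratio of large to small subunit sums was 1.63 to 1.85 in the 15 libraries, with group means of 1.77 ± 0.05, 1.73 ± 0.09, 1.72 ± 0.04 and 1.73 ± 0.04 in the same order.

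**Figure D2:**
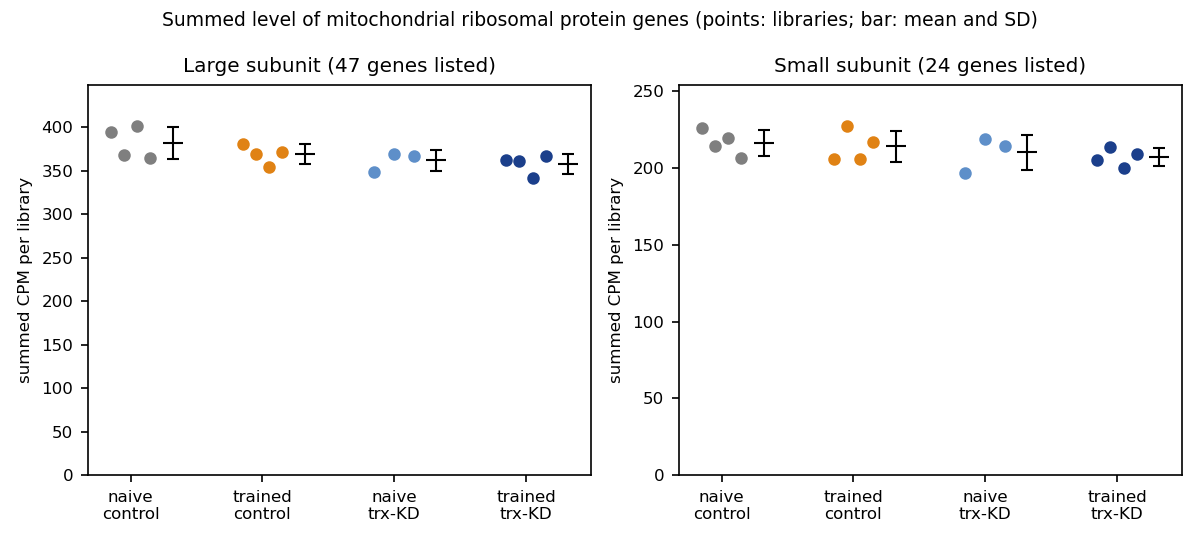
Summed CPM of the large subunit genes (left) and the small subunit genes (right) in each library (points) by group, with the group mean and SD beside them. The large subunit sums lie between 342 and 401 CPM and the small subunit sums between 197 and 227 CPM, and the 4 groups overlap in both panels.

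To find changes after training, trained controls were compared with naïve controls. The quasi-likelihood test of edgeR called no mitochondrial ribosomal protein gene (adjusted p under 0.1), whereas it called 4.38% of all genes tested, 1.03% higher and 3.35% lower. None of the 69 genes had an unadjusted p under 0.05 in edgeR, against 13.5% of all genes, and DESeq2 called 0 with 1 gene under an unadjusted p of 0.05. The estimates leaned to lower levels after training: 51 of 69 were below 0, with a median log2 fold change of -0.07 against 0.00 for all genes. This lean was not particular to these genes. Estimates were lower for 63 of 76 cytosolic ribosomal protein genes (median -0.15) and 59 of 61 nuclear respiratory chain genes (median -0.13). Among other genes of mitochondrial gene expression, 21 of 37 were lower (median -0.01). The single values ran from -0.38 to 0.29. For 63 of the 69 genes the 95% interval of the change lay within 1.5-fold in either direction. No gene had trained and naïve control libraries that did not overlap, which held for 9.91% of all genes. Summed fat body and hemolymph markers were at 482 to 1313 CPM in naïve and 150 to 219 CPM in trained controls. Of these 1 of 5 tested was called lower, as was 1 of 6 photoreceptor markers. No Kenyon cell, glia, hemocyte or muscle marker was called. The part of these markers in the estimates was not tested.

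In trx-KD flies, training was also followed by no call among the 69 genes (edgeR, adjusted p under 0.1), where 0.534% of all genes were called. Here 7 genes had an unadjusted p under 0.05, which held for 12.0% of all genes, and DESeq2 called 0 with 8 genes under an unadjusted p of 0.05. The median log2 fold change was -0.02 (0.04 without naïve trx-KD library 3), with 35 of 69 estimates lower, and the interval lay within 1.5-fold for 43 genes. Of the 69 genes, 8 had trained and naïve trx-KD libraries that did not overlap, a share near the 12.0% of all genes. Levels after training were lower in 5 of them and higher in 3. The lower ones were mRpL37, mRpL47, mRpL48, mRpS2 and mRpS30, with log2 fold changes of -0.31, -0.27, -0.52, -0.40 and -0.26 (mRpL37 and mRpS2 were chosen for mention after their values were seen). mRpL37 had 10.6, 11.6 and 11.7 CPM in naïve and 10.03, 8.05, 8.56 and 9.68 CPM in trained trx-KD flies (log2 fold change -0.31, SE 0.12, adjusted p = 0.37). The higher ones were mRpL33, mRpL52 and mRpS11. mRpL33 had 6.96, 6.32 and 6.23 CPM in naïve and 7.08, 7.87, 11.3 and 10.1 CPM in trained trx-KD flies (log2 fold change 0.48, SE 0.17, adjusted p = 0.35). mRpL52 and mRpS11 had log2 fold changes of 0.29 and 0.36 (adjusted p of 0.38 and 0.34).

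The difference between the training responses of the genotypes, tested as the interaction of training and genotype over all 15 libraries, gave no call among the 69 genes and none among all 9749 genes tested (0.0%) with edgeR. At an unadjusted p under 0.05 there were 8 of the 69 genes and 10.8% of all genes, and DESeq2 called 0 of the 69 genes, with 8 under an unadjusted p of 0.05. The largest interaction was that of mRpL33, a counterpart of the bacterial protein L33, at 0.84 on the log2 scale (SE 0.26, adjusted p = 0.36). At the other end mRpL48 had -0.82 (SE 0.32, adjusted p = 0.41). The median SE of the interaction was 0.21, and only 25 of 69 intervals lay within 1.5-fold, so the intervals of the other genes include differences beyond 1.5-fold.

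The role of trx was first asked in naïve flies, by comparing naïve trx-KD with naïve controls. Of the 69 genes 2 were called, mRpS24 and mRpL36, and both fell. This share of 2.9% compares with 14.2% of all genes tested (6.27% higher and 7.88% lower), and with 8.4% of the 2750 genes that have a mean level between 3.05 and 15.2 CPM, the range that holds 90% of the mitochondrial ribosomal protein genes. In the median the log2 fold change was -0.05, with 50 of 69 estimates below 0 (all genes: -0.02, 53.7% below 0), and the 95% interval lay within 1.5-fold for 54 genes.

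mRpS24 is the mitochondrial counterpart of the bacterial small subunit protein S3, which lies where the messenger RNA enters the ribosome. It is encoded on chromosome 3R (24162829 to 24163545, minus strand). Its level was 6.37, 5.18, 5.65 and 3.22 CPM in the naïve control libraries and 1.73, 3.10 and 3.01 CPM in the naïve trx-KD libraries. Every naïve trx-KD library lay below every naïve control library, with control library 4 only slightly above them. The group means of 5.11 ± 1.35 and 2.61 ± 0.77 CPM (SD, n = 4 and 3) correspond to a log2 fold change of -0.98 (SE 0.27, adjusted p = 0.0489), a ratio of 0.51. In trained flies the same gene was at 4.85, 4.93, 3.95 and 5.47 CPM in controls and at 3.85, 2.10, 1.84 and 2.55 CPM in trx-KD libraries, again without overlap. The trained groups gave a log2 fold change of -0.88 (SE 0.23, adjusted p = 0.0423). TBC1d7, which covers 55.3% of its exon length on the other strand, had a log2 fold change of -0.05 in naïve and 0.33 in trained flies and was not called in either. Apc2, whose start lies 421 bases away in the other direction, was not called either (-0.30 and -0.05).

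mRpL36, the counterpart of the small zinc-binding bacterial protein L36, lies on chromosome 3L (8124584 to 8125132, minus strand). It had 5.82, 7.67, 6.66 and 8.40 CPM in naïve controls and 4.77, 5.59 and 5.17 CPM in naïve trx-KD libraries, so that the groups did not overlap (log2 fold change -0.47, SE 0.15, adjusted p = 0.0891). In trained flies mRpL36 was at 8.74, 5.89, 6.68 and 5.66 CPM in controls and 7.45, 5.16, 8.16 and 6.88 CPM in trx-KD flies. The trained groups overlapped widely (log2 fold change 0.05, SE 0.18, adjusted p = 0.89), and the interaction was 0.52 (adjusted p = 0.46). In all, 5 genes had naïve groups that did not overlap, against 23.0% of all genes tested.

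Both calls in naïve flies rested on few libraries. mRpL36 also missed the threshold with upper-quartile scaling, without a filter and in 1 fit of all 15 libraries (adjusted p of 0.11, 0.11 and 0.12). No member was called without naïve control library 3, without naïve trx-KD library 1 or without naïve trx-KD library 2, 1 was called without naïve control library 1, naïve control library 2 or naïve trx-KD library 3, and 6 were called without naïve control library 4. That control library had the lowest naïve control values of mRpS24, mRpL28 and mRpS22, and its mitochondrial genome took 0.368% of counts against 0.749% to 0.946% in the other naïve controls. Its part in the result was not tested beyond leaving it out. Some markers of other cell types were also called lower in naïve trx-KD flies. These were 3 of 5 muscle markers (median log2 fold change of the list -0.57), 3 of 5 hemocyte markers (-0.51), 2 of 5 glia markers (-0.11) and 1 of 6 fat body and hemolymph markers (-0.27). Of the Kenyon cell markers 2 of 11 were called higher (0.06), and no photoreceptor marker was called. Summed muscle markers were at 3776 to 7347 CPM in naïve controls and 3910 to 5028 CPM in naïve trx-KD flies, and summed hemocyte markers at 367 to 460 and 425 to 458 CPM, with NimC1, He and eater under 1 CPM. Their part in the falls was not tested.

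After training, trx-KD flies differed from controls in 7 of the 69 genes. mRpL33, mRpL52 and mRpS11 rose, and mRpL28, mRpS22, mRpS24 and mRpS30 fell. This share of 10.1% lies below the 13.9% of all genes tested (7.12% higher and 6.78% lower) and near the 8.27% of genes at similar levels. The median log2 fold change was -0.03, with 39 of 69 estimates lower, and that over all genes was -0.03 as well. The 95% interval lay within 1.5-fold for 45 genes, and the groups did not overlap in 9 genes, against 17.8% of all genes.

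Of the genes that rose, mRpL33 is encoded on the X chromosome (4321764 to 4322231, minus strand). It was at 6.20, 5.34, 5.95 and 5.75 CPM in trained controls and at 7.08, 7.87, 11.3 and 10.1 CPM in trained trx-KD libraries. All trx-KD libraries were higher than all controls (log2 fold change 0.65, SE 0.16, adjusted p = 0.0337). In naïve flies, with 6.87, 5.12, 7.60 and 9.97 CPM in controls, the groups overlapped and the estimate was of the opposite sign (log2 fold change -0.20, SE 0.19, adjusted p = 0.58). Its neighbour norpA, a photoreceptor phospholipase gene that starts 395 bases away, had a log2 fold change of 0.04 in trained flies.

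mRpL52, a protein with no bacterial counterpart, is encoded on 2R. It had 6.44, 6.79, 7.57 and 5.66 CPM in trained controls and 9.05, 8.77, 9.44 and 10.1 CPM in trained trx-KD libraries. The knockdown libraries were again all higher (log2 fold change 0.49, SE 0.12, adjusted p = 0.0334). In naïve flies mRpL52 was at 7.64, 5.99, 7.91 and 6.94 CPM in controls and 7.42, 7.53 and 8.02 CPM in trx-KD flies, and there the groups overlapped (log2 fold change 0.10, SE 0.13, adjusted p = 0.68).

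mRpS11, the counterpart of the bacterial small subunit protein S11, lies on 3R (17072732 to 17073795, plus strand). In trained controls it had 8.74, 10.3, 10.5 and 11.4 CPM and in trained trx-KD libraries 11.9, 12.4, 15.8 and 13.9 CPM. The groups did not overlap, although control library 4 came close to the lowest trx-KD library (log2 fold change 0.39, SE 0.13, adjusted p = 0.0818). In naïve flies the levels were 9.78, 10.2, 8.65 and 8.86 CPM in controls and 9.88, 10.6 and 11.1 CPM in trx-KD flies (log2 fold change 0.17, SE 0.11, adjusted p = 0.37), with overlap. Ns1, a nucleolar GTPase gene whose start lies 57 bases from that of mRpS11 on the other strand, had estimates of the opposite sign, -0.17 in naïve and -0.21 in trained flies, neither of which was called. Over both treatments Ns1 was called lower (log2 fold change -0.19, adjusted p = 0.0487), and all trx-KD libraries lay apart from all control libraries.

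Of the genes that fell, mRpS30 had the highest CPM of all 69 genes. In mammals its counterpart was placed in the large subunit. It is encoded on the X chromosome (15786047 to 15788288, plus strand). It was at 27.8, 35.9, 30.6 and 31.8 CPM in trained controls and 23.9, 27.1, 21.1 and 22.9 CPM in trained trx-KD libraries. The trx-KD libraries were all lower, if narrowly so (log2 fold change -0.41, SE 0.10, adjusted p = 0.0385). Naïve controls had 33.8, 27.5, 31.1 and 24.5 CPM and naïve trx-KD libraries 27.3, 27.2 and 30.8 CPM, a difference smaller than the spread (log2 fold change -0.04, SE 0.11, adjusted p = 0.88).

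mRpL28, the counterpart of the bacterial large subunit protein L28, is encoded on 2L (4973976 to 4975316, plus strand). It had 17.7, 18.2, 15.3 and 17.8 CPM in trained controls and 13.5, 11.6, 13.6 and 13.8 CPM in trained trx-KD libraries. These groups did not overlap (log2 fold change -0.39, SE 0.10, adjusted p = 0.0428). In naïve controls it was at 19.0, 18.4, 19.0 and 11.9 CPM and in naïve trx-KD libraries at 14.3, 12.6 and 15.4 CPM, where control library 4 alone fell below the trx-KD libraries (log2 fold change -0.27, SE 0.16, adjusted p = 0.33). Gmd had similar estimates, -0.31 in naïve and -0.42 in trained flies, neither called within its treatment. Its exons overlap those of mRpL28 on the other strand by 17 bases, which is 1.45% of the exon length of mRpL28. Over both treatments Gmd was called lower (log2 fold change -0.37, adjusted p = 0.0359), as was mRpL28 (log2 fold change -0.34, SE 0.10, adjusted p = 0.0216), and with the strand setting unknown, reads of their shared bases cannot be told apart.

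mRpS22 has no bacterial counterpart and is encoded on 3R (27916908 to 27918248, plus strand). It was at 10.2, 15.2, 11.4 and 13.6 CPM in trained controls and 10.4, 9.07, 7.02 and 9.17 CPM in trained trx-KD libraries. The highest trx-KD library lay just above the lowest control (log2 fold change -0.50, SE 0.16, adjusted p = 0.0758). In naïve flies, with 14.7, 14.5, 11.8 and 7.52 CPM in controls and 9.66, 11.2 and 10.8 CPM in trx-KD flies, the groups overlapped (log2 fold change -0.19, SE 0.20, adjusted p = 0.61). CG5003, which starts 392 bases away in the other direction, rose in trained trx-KD flies by 0.29 on the log2 scale (adjusted p = 0.0642) and over both treatments by 0.22 (adjusted p = 0.039).

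The calls in trained flies also depended on single libraries. mRpS11 missed the threshold without a filter (adjusted p = 0.10) and with scaling by library size only (0.12). Without trained control library 4 no gene was called, and without trained control library 2 or trained trx-KD library 4 only 1 was. The groups differed in other ways too: summed Kenyon cell markers were 13986 to 16257 CPM in trained trx-KD and 11837 to 13367 CPM in trained control libraries, with 8 of the 11 markers called higher. Of the muscle markers 2 of 5 were called lower (median -0.31; 3370 to 7350 CPM summed in controls and 3233 to 6642 CPM in trx-KD flies), as were 1 of 5 glia and 1 of 6 photoreceptor markers, while 2 of 6 fat body and hemolymph markers and 1 of 4 hemocyte markers were called higher. The mitochondrial genome took 0.241% to 0.667% of counts in trained trx-KD and 0.816% to 1.02% in trained control libraries. Their part in the changes of the 7 genes was not tested.

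With both treatments in 1 model of genotype and treatment, which uses the same libraries again, 8 genes were called, against 25.2% of all genes tested and 18.7% of those at similar levels. mRpL52 and mRpS11 were higher in trx-KD flies, and mRpL24, mRpL28, mRpL42, mRpS22, mRpS24 and mRpS30 were lower. The median log2 fold change was -0.06 (all genes: -0.03), 43 of 69 estimates were below 0, and 63 intervals lay within 1.5-fold. No gene had all trx-KD libraries apart from all control libraries, which held for 4.0% of all genes. mRpS24 showed the largest change, a log2 fold change of -0.93 (SE 0.18, adjusted p = 0.0024), and the other 7 lay between -0.35 and 0.31. mRpS22 and mRpS30 missed the threshold with upper-quartile scaling (adjusted p of 0.11 and 0.12) and without a filter (0.10 and 0.11). Leaving out naïve control library 4 raised the count to 13, and it was 5 without trained control library 4 or naïve trx-KD library 1.

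Of these genes, mRpL24 and mRpL42 were called in this model alone. mRpL24, encoded on 2L (4944256 to 4945361, minus strand), is the counterpart of a bacterial protein that starts the assembly of the large subunit. It had 21.9, 19.7, 21.3 and 18.9 CPM in naïve controls, 17.7, 17.8 and 14.8 CPM in naïve trx-KD flies, 17.2, 20.1, 18.5 and 21.1 CPM in trained controls and 16.1, 18.2, 10.01 and 13.6 CPM in trained trx-KD flies. The naïve groups did not overlap, while trained trx-KD library 2 lay within the range of the trained controls (log2 fold change -0.35, SE 0.10, adjusted p = 0.0226). mRpL42, on 2R and without a bacterial counterpart, was at 7.96, 6.13, 7.68 and 6.37 CPM in naïve controls, 5.04, 5.27 and 5.99 CPM in naïve trx-KD flies, 6.68, 7.24, 6.31 and 8.35 CPM in trained controls and 7.25, 5.88, 5.71 and 6.05 CPM in trained trx-KD flies. Its naïve groups were likewise apart and its trained groups overlapped (log2 fold change -0.28, SE 0.10, adjusted p = 0.0499).

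**Figure D3:**
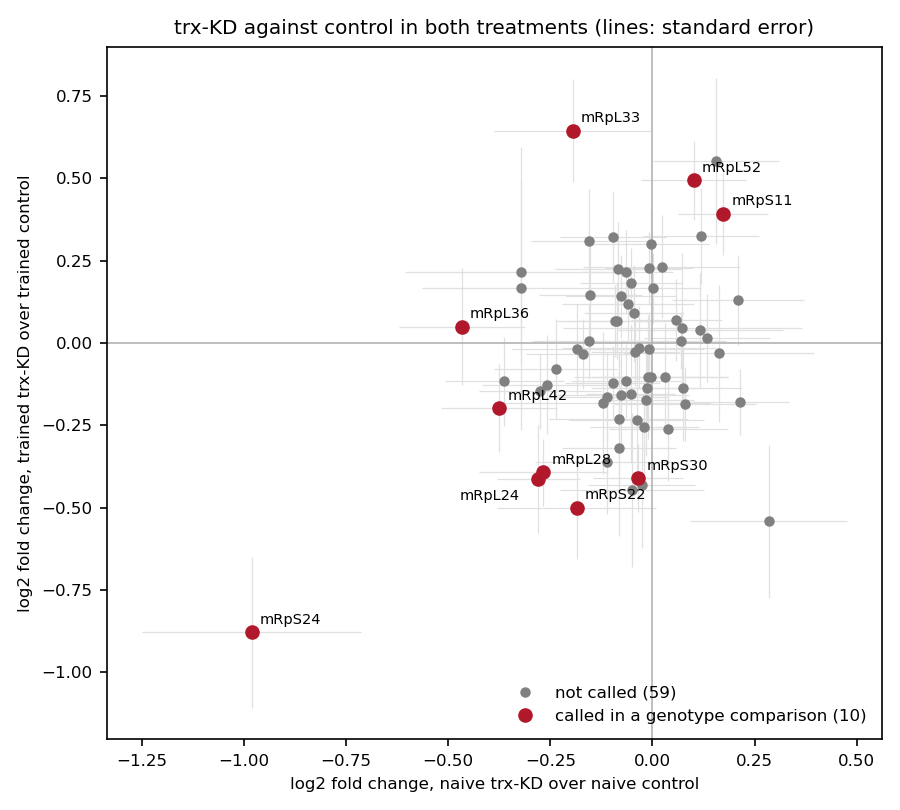
Log2 fold change of trx-KD over control in naïve flies (x axis) and in trained flies (y axis) for the 69 tested genes, with lines for the SE and the 10 genes called in any genotype comparison in red. mRpS24 is far below 0 on both axes, 32 genes are lower and 12 higher on both, and mRpL33 is above 0 only in trained flies.

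**Figure D4:**
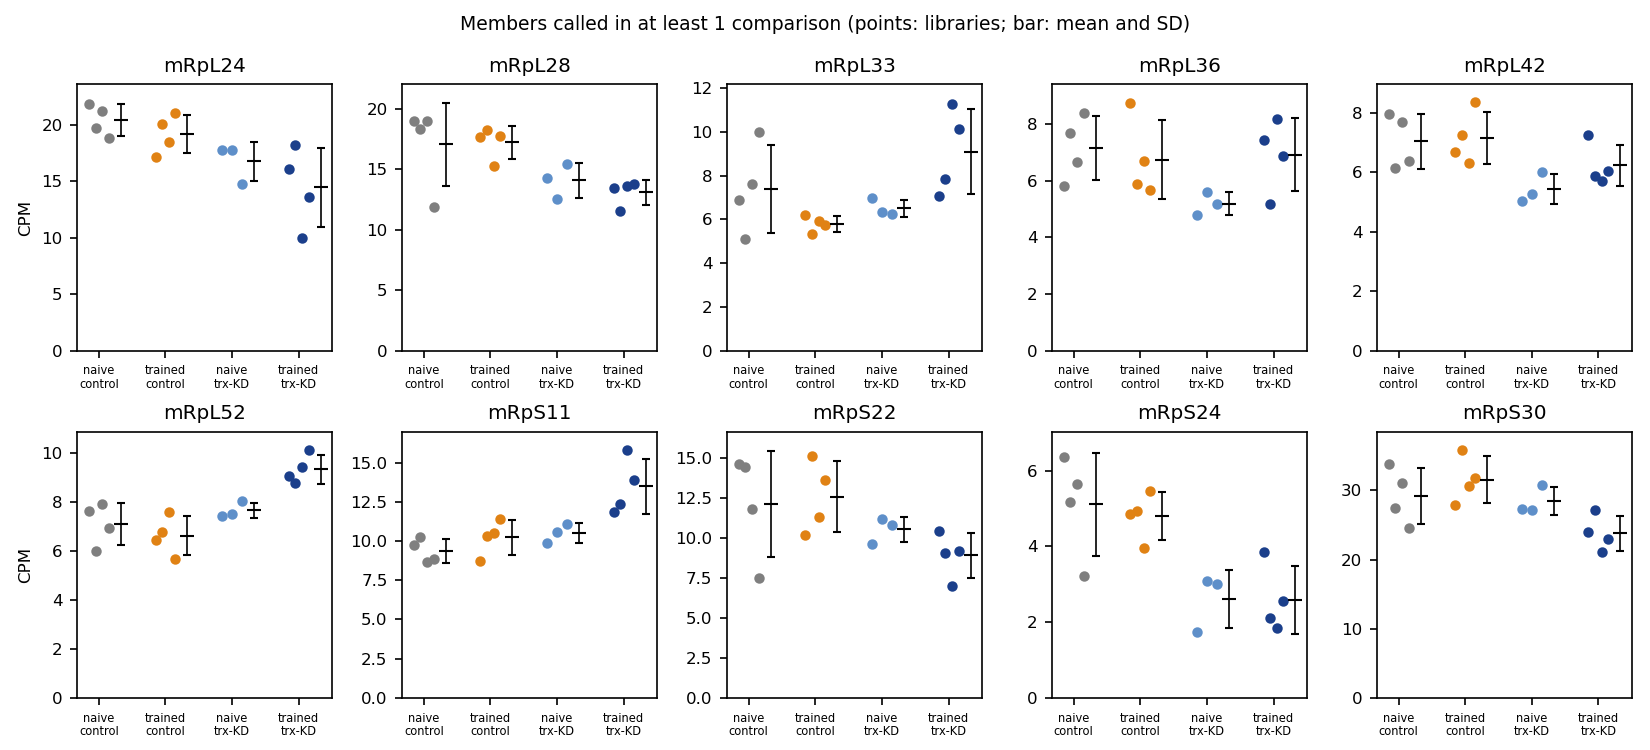
CPM of the 10 called genes in each library (points) by group, each panel on its own scale from 0, with the group mean and SD beside the points. mRpS24 is low in both trx-KD groups, and mRpL52 and mRpS11 are highest in trained trx-KD flies.

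Some of the largest estimates did not pass the test. mRpL14 had 4.67, 5.03, 5.38 and 5.47 CPM in trained controls and 4.63, 5.46, 11.4 and 8.73 CPM in trained trx-KD libraries, where libraries 3 and 4 were high and the other two within or just below the control range (log2 fold change 0.55, SE 0.25, adjusted p = 0.20). mRpL48 was at 6.44, 5.03, 5.78 and 5.47 CPM in trained controls and 4.22, 4.68, 2.06 and 4.78 CPM in trained trx-KD libraries, without overlap, and trx-KD library 3 had the lowest value (log2 fold change -0.54, SE 0.23, adjusted p = 0.17). In naïve flies mRpL48, mRpL47 and mRpS35 had the highest estimates, at 0.28, 0.21 and 0.21 (adjusted p of 0.40, 0.30 and 0.47). All 3 encode proteins of the mitochondrial ribosome alone or, for mRpL47, a counterpart of the bacterial protein L29.

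Small subunit proteins also go under other names in flies. tko, the mitochondrial counterpart of the bacterial protein S12, was at 15.4 ± 1.95 CPM in naïve controls, 13.6 ± 2.05 CPM in naïve trx-KD flies, 15.9 ± 1.48 CPM in trained controls and 13.6 ± 1.67 CPM in trained trx-KD flies. It was not called in any comparison (log2 fold change -0.20, SE 0.09, adjusted p = 0.12 over both treatments). bonsai, the counterpart of S15, was not called either (log2 fold change 0.12, SE 0.11, adjusted p = 0.47).

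Other genes that act on mitochondrial DNA and RNA or charge mitochondrial transfer RNAs formed a list of 47 names, of which 44 were in the tables and 37 were tested. Its calls were no more frequent than those of all genes: 1 of 37 (2.7%) against 4.38% for training in controls, 1 of 37 (2.7%) against 13.9% for trx-KD in trained flies and 2 of 37 (5.41%) against 25.2% over both treatments, with none for the other comparisons. In controls, training was followed by a fall of TFAM, which packages mitochondrial DNA, from 14.1 to 16.2 CPM in the naïve to 11.3 to 12.7 CPM in the trained libraries, without overlap (log2 fold change -0.33, SE 0.09, adjusted p = 0.0795). In trx-KD flies the estimate for TFAM had the opposite sign (log2 fold change 0.28, SE 0.20, edgeR adjusted p = 0.61). The interaction for TFAM was 0.60 (SE 0.22, edgeR adjusted p = 0.395). In trained flies mtSSB, the single-stranded DNA binding protein of the organelle, was at 3.84, 3.49, 1.91 and 3.15 CPM in controls and 1.80, 1.08, 0.48 and 0.89 CPM in trx-KD libraries, which were all lower (log2 fold change -1.51, SE 0.36, adjusted p = 0.0313). No other gene of the list was called within a treatment or genotype, and over both treatments mtSSB and GluRS-m, a glutamyl transfer RNA synthetase, were called lower (log2 fold change -0.46, SE 0.18, adjusted p = 0.0859 for GluRS-m). In naïve flies alone mtSSB differed little between the genotypes (log2 fold change -0.09, SE 0.24, edgeR adjusted p = 0.86). Both genes were read at low counts, down to 11 for mtSSB and 15 for GluRS-m in the lowest library. TFAM and mtSSB act on the DNA of the organelle and not on its ribosome.

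Side by side with these lists, naïve trx-KD flies had 26 of 76 cytosolic ribosomal protein genes called (24 lower and 2 higher, median -0.22) and 16 of 62 nuclear respiratory chain genes called (all lower, median -0.18), with 2 of 69 mitochondrial ribosomal protein genes (median -0.05). In trained flies the counts were 19 of 76 (6 higher and 13 lower, median -0.06), 14 of 62 (3 higher and 11 lower, median -0.01) and 7 of 69 (3 higher and 4 lower, median -0.03). After training in controls they were 10 of 76 (median -0.15), 4 of 61 (median -0.13) and 0 of 69 (median -0.07), with every call lower. Of all genes tested, 14.2% were called in naïve trx-KD flies, 13.9% in trained trx-KD flies and 4.38% after training in controls. The cytosolic and respiratory chain genes were read at far higher levels (medians of 133 and 61.4 against 9.27 CPM per kb in naïve controls). The part of these levels in the number of calls was not tested. The difference between the lists was not tested. Neither was the part of the single muscle, hemocyte and glia markers called lower in naïve trx-KD flies.

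**Figure D5:**
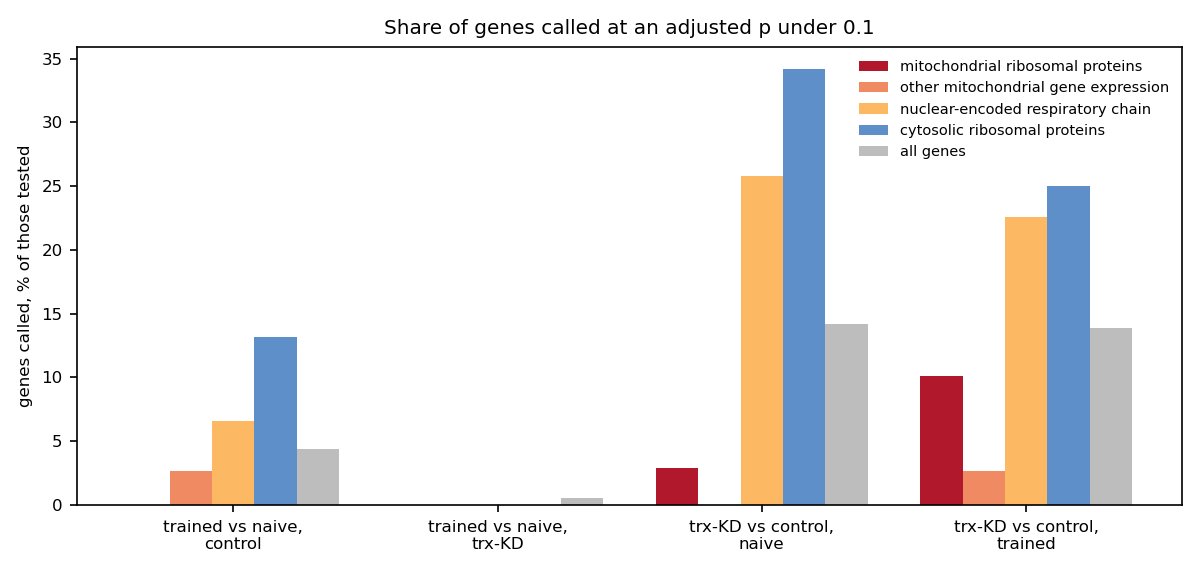
Share of the tested genes of each list that was called at an adjusted p under 0.1 (y axis, percent) in the 4 comparisons within a genotype or treatment, with all genes tested in grey. In naïve trx-KD flies 2.9% of the mitochondrial ribosomal protein genes were called, against 34.2% of the cytosolic ribosomal protein genes and 14.2% of all genes.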

How the data were processed

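RNA of GFP-positive nuclei, bound to anti-GFP beads from homogenised heads, was purified with a PicoPure kit and made into libraries with the Nugen Ovation Drosophila RNA-Seq System. The submitters' processing notes name STAR 2.5.3a, HTSeq 0.7.1 and the build dm6. Annotation release and strand setting are not given in the sources used here. The authors deposited raw counts per FlyBase gene, 1 table per library. The nuclear tag (0.437% to 0.681% of counts) was left out. Counts were fitted across all genes with edgeR 4.0.16 in R 4.3.3 (filterByExpr with a minimum count of 10 and a total of 15, TMM, quasi-likelihood test, two-sided), p-values adjusted by Benjamini-Hochberg over every gene tested, and calls at an adjusted p under 0.1. Only the groups compared entered a fit, except for the interaction and the model of both treatments. SE is the log2 fold change divided by the root of F. CPM carry no pseudocount, and CPM per kb use exon lengths of BDGP6.54. DESeq2 1.42.0, 2 other scalings, no filter, protein-coding genes alone, a replicate block, a threshold of 0.05, 1 fit of all libraries and leaving out each library were alternatives. The fits were also run on simulated counts with known changes. Every simulated gene had the same dispersion, unlike the genes here, so these runs cannot show how calls behave at the spread of these libraries. Replicate libraries were distinct (21 pairs, r of 0.976 to 0.993, chi-square per degree of freedom of at least 7.41). Named genes were those called, the 3 highest and 3 lowest estimates in each genotype comparison, the 3 highest and lowest levels, the untested genes, the mRpS18 paralogs, and trx, tko, bonsai and called genes of the mitochondrial list. The genes and lists were chosen with earlier results of these data known.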

Additional observations from a re-analysis of the deposited data

Results flagged for a closer look

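The gap of the highest or lowest library to the nearest other one was set against the range of its group for 28 genes and sums in the groups of 4 libraries, 84 groups in all, and 4 gaps passed Dixon's 95% critical value, where chance gives about 1 in 20. mRpL28 was at 11.9 CPM in naïve control library 4, with the other 3 at 18.4 to 19.0 CPM, and at 11.6 CPM in trained trx-KD library 2, with the others at 13.5 to 13.8 CPM. mRpS18B was at 4.17 CPM in naïve control library 1, with the others at 4.64 CPM. tko was at 16.1 CPM in trained trx-KD library 1, with the others at 12.7 to 12.9 CPM. No gene described here passed the test of the interaction of training and genotype.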

How the results depend on the processing

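No alternative turned the direction of a called gene. In naïve flies, the 2 genes called became 1 with upper-quartile scaling, no filter, a threshold of 0.05 or 1 fit of all 15 libraries, and 0 to 6 when single libraries were left out. After training, the 7 became 0 to 10 and over both treatments the 8 became 5 to 13 without single libraries; upper-quartile scaling changed the latter from 2 higher and 6 lower to 4 and 4. mRpS24 over both treatments was called in all 22 alternatives. Scaled by library size only, the median log2 fold change of the genes was -0.077 after training in trx-KD flies and -0.097 for trained trx-KD against control. Without single libraries the medians ran from -0.068 to 0.037 for training in trx-KD flies and from -0.0080 to 0.079 for the interaction. The count of all genes called after training in trx-KD flies went from 50 to 244 with DESeq2, 91 without a filter, 125 in 1 fit of all libraries and 18 at 0.05. DESeq2 called 24 genes for the interaction, and a threshold of 0.05 left 703 genes in naïve and 721 in trained flies for the genotype. Without single libraries, the counts of all genes called ran from 230 to 711 and from 4 to 160 for training in controls and trx-KD flies, from 330 to 2558 and from 495 to 1808 for the genotype in naïve and trained flies, and from 0 to 189 for the interaction. The causes were not tested. Depth limits the low genes most: mRpL34 had 16 to 62 counts per library, with a median of 23.

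Libraries with the same replicate number had deviations with an r of -0.12 to 0.14 over 14 pairs, 1 of them above 0.1. Libraries with different numbers had an r of -0.22 to 0.17. With deviations taken from the means of small groups, these values cannot decide whether the numbers pair the samples. With the number as a replicate block, 7 genes were called in naïve flies, 9 in trained flies and 10 over both treatments, and none for training or the interaction. All genes called went from 405 to 246 and from 50 to 8 for training, and from 1333 to 2712 for naïve trx-KD.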
